A study of Mus musculus with 18 samples.

Results

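The livers of male mice homozygous for leucine at residue 446 of GKRP (LL genotype) were compared with those of male mice that carry the wild-type proline (PP genotype). The members were the 8 libraries of male mice, 4 LL and 4 PP, out of 18 liver libraries in the series, 1 library per mouse. The other 10 libraries came from females. The mice belong to the knock-in line GCKR-P446L-EMI-B6N, a knock-in of the gene itself, so the change was not restricted to hepatocytes. Labels give the PP animals as Gckr-446P and the LL animals as Gckr-446L, and both groups ate standard chow. In its results the study describes PP mice of this line as wild-type littermates of LL mice, without tying this to the sequenced animals. Ages in the labels were 9, 12, 14 and 14 weeks for male PP 1 to 4 and 13, 13, 13 and 14 weeks for male LL 1 to 4, in place of the 14 weeks in the description of the series. The question was how the LL form of GKRP changes the liver transcriptome of males on a regular diet.

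GKRP, the product of Gckr, is a regulatory protein of hepatocytes that helps to set the flow of glucose carbon into glycolysis, glycogen and fat. Metabolites of this flow activate the transcription factor ChREBP, while fatty acids and their derivatives activate PPARα, which raises the enzymes of fatty acid oxidation. Liver is also the source of most circulating acute-phase and complement proteins, and in male mice of the major urinary proteins (Mup genes), which growth hormone pulses acting through STAT5 keep high.

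The reference sequence around the edited residue is shown because the counts themselves cannot show the genotype. In Gckr-202, the transcript that held most of the Gckr counts, the codon of residue 446 lies in coding exon 15 of 19 and is the last codon of that exon, at chr5:31466275-31466277 on the plus strand of GRCm39. The window chr5:31466245-31466307 is given 5′ to 3′ with the proline codon in capitals, and the bases after the capitals are intronic.
Gckr codon 446, PP reference: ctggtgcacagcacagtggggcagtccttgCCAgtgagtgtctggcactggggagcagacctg

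Counts were estimated by Salmon and summed to genes. Normalized counts are these sums divided by the DESeq2 size factor of the library, and TPM is the deposited abundance per length. Total estimated counts ranged from 3794671 to 6613905 in male PP and from 4314316 to 6183695 in male LL libraries. The LL minus PP difference in their means was -605736 counts, smaller in size than the SD of either genotype (exact permutation p = 0.457, two-sided). Fragment length was not measured but inferred, as the median of length minus Salmon's effective length over transcripts of at least 3000 bases. It was 518 ± 95.7 bases for PP and 407 ± 156 bases for LL males (± SD, 4 mice each). Its difference in means was -111 bases, larger in size than the PP SD (exact permutation p = 0.286, two-sided). Male LL 2 had the smallest inferred value, 203 bases. With 4 mice against 4 the smallest p this test allows is 0.0286. All 10 hepatocyte markers were tested and 0 were called, with a summed level of 27997 to 45545 TPM in male PP and 46891 to 64287 TPM in male LL livers. Most genes had a higher mean TPM in LL mice, as given below with the Mup genes, and these sums include that shift. Markers of sinusoidal endothelium (8 tested), red blood cells (5) and cholangiocytes (1) also held 0 calls. Of 4 adipocyte markers, Adipoq, Retn and Plin1 were at 0 in all 8 males, and of 6 acinar pancreas markers, Ctrb1 and Pnlip were at 0. The other adipocyte marker, Car3, had 5611 to 15152 normalized counts in the males, and the acinar marker Cela1 had 41.5 to 111. Neither was called. Cpa1, Prss2 and Cela2a had at most 1.78 normalized counts. No marker of neutrophils or lymphocytes had enough counts to be tested. On the 500 most variable genes the genotypes were not separated along the first principal component, which held 24.0% of the variance and placed the male LL mice at 38.2, 9.89, -10.4 and -29.7 and the male PP mice at -28.2, 24.2, -17.8 and 13.8.

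The edited gene was compared before all others. Gckr (ENSMUSG00000059434, chromosome 5, 31454787 to 31484658) had 565, 399.7, 581 and 528 normalized counts in male PP 1 to 4 and 515, 464, 468 and 465 in male LL 1 to 4. The values overlapped, and the log2 fold change of -0.12 ± 0.15 SE (adjusted P by DESeq2 = 0.812) was smaller than the spread between mice. Per length, Gckr was at 39.6 TPM in male PP and 43.7 TPM in male LL mice.

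By LL genotype 28 of 10938 tested genes were differentially expressed genes (DEGs), which is 0.256% of them. DEGs had to pass 0.05 in adjusted P by DESeq2, with a ratio of LL to PP of 1.3 or more, or 0.7 or less. In male LL mice 21 genes were higher (0.192% of the genes tested) and 7 were lower (0.064%). Cyp2a4, among the 21, passed the filter on low counts only through the female libraries. The higher genes were mostly enzymes and carriers of lipid metabolism. Genes of desaturation and elongation were Scd1, Elovl5, Elovl6, Fads1 and Fads2. Cyp4a14, Ehhadh and Acot3 belong to fatty acid oxidation, Acsl5 activates fatty acids, Mfsd2a carries lysophospholipid, Pctp binds phosphatidylcholine, and Apoa4 is an apolipoprotein. The lower genes held the serum amyloids Saa1 and Saa2, complement C4b, the cytokine receptor Lifr, Ldhd, Hsd3b7 and the predicted gene Gm46620. Unadjusted p was below 0.05 in 854 genes (7.81%), 420 higher (3.84%) and 434 lower (3.97%), which are the background for the counts of each gene list. After independent filtering DESeq2 gave an adjusted P to 1818 genes, those of higher mean counts over the 18 libraries. A gene without an adjusted P could not be called. Without independent filtering 30 genes were DEGs, of which 16 were among the 28. With edgeR's quasi-likelihood test 3 genes were called, Elovl5, Lepr and Rasal2. Every male LL value lay above every male PP value in 197 genes (1.8%) and below it in 248 genes (2.27%).

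**Figure D1:**
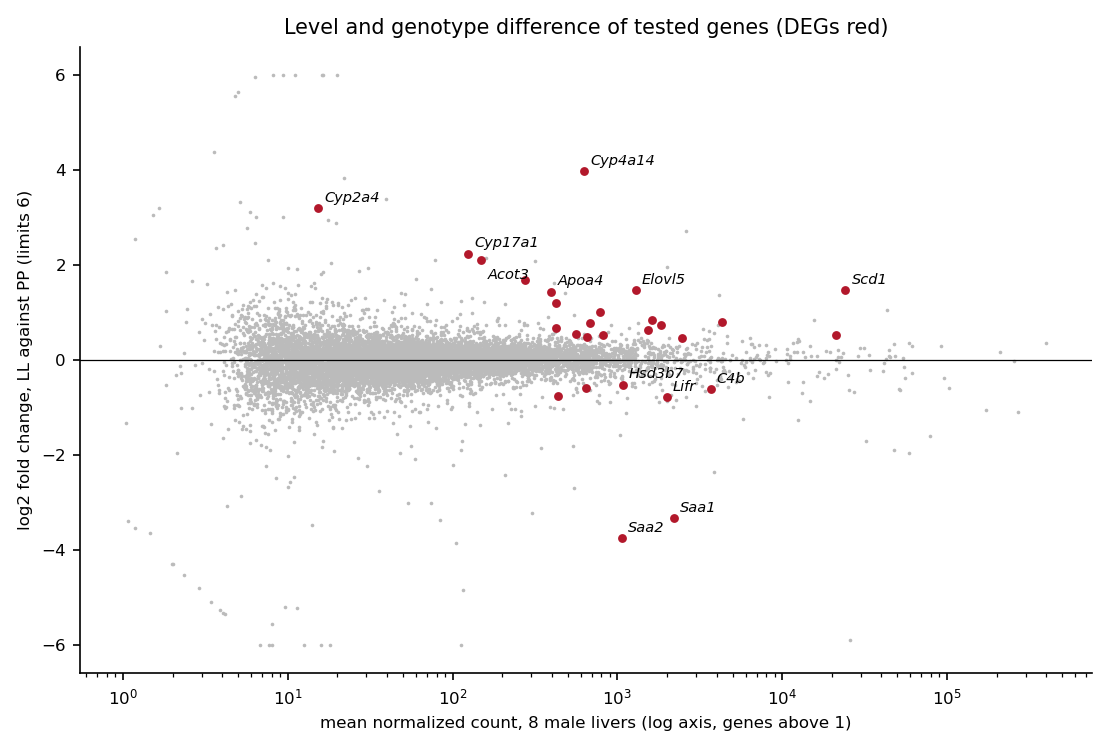
Each point is a tested gene of male liver with a mean above 1, placed by its mean normalized count over the 8 males (log axis) and its log2 fold change in LL against PP mice, with differences beyond 6 drawn at 6 and the 28 DEGs in red. DEGs span levels from Cyp2a4 on the left, with a mean of 3.02 normalized counts in male PP mice, to Scd1 on the right, with 12786, and genes of low count spread widely around 0.

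The median level over the genes of polyunsaturated fatty acid synthesis was higher in each LL liver than in any PP liver. Elovl5 (ENSMUSG00000032349, chromosome 9, 77818113 to 77891802), which elongates polyunsaturated fatty acids, had 619, 564, 918 and 628 normalized counts in male PP 1 to 4 and 2589, 1682, 1564 and 1755 in male LL 1 to 4. All 4 LL livers were above all 4 PP livers, with a log2 fold change of 1.47 ± 0.22 SE (adjusted P by DESeq2 = 4.99e-08). It was the only DEG that kept its call under all 19 alternatives, with an adjusted P of at most 0.0382, which came from edgeR. Fads1 (ENSMUSG00000010663, chromosome 19, 10160167 to 10174241) and Fads2 (ENSMUSG00000024665, chromosome 19, 10038130 to 10079203) encode the desaturases of the same pathway, Fads2 that before and Fads1 that after the elongation. Fads2 had 2674, 3416, 3048 and 3415 in the male PP and 5839.9, 4564, 4444 and 6952 in the male LL livers, and Fads1 had 1291, 1350.3, 1307 and 1572 in the male PP and 2300.5, 1846, 1959 and 3117 in the male LL livers. Both rose without overlap between genotypes, by log2 fold changes of 0.80 ± 0.18 SE (adjusted P by DESeq2 = 0.00188) and 0.74 ± 0.17 SE (adjusted P by DESeq2 = 0.00189), and male LL 4 had the highest value of each. Fads1 kept its call without any single library, while Fads2 lost it without male PP 1 (adjusted P = 0.0506 by DESeq2). Elovl2, the elongase of longer chains, chosen after its values were seen, had a log2 fold change of 0.47 ± 0.18 SE (adjusted P by DESeq2 = 0.179), and male LL 4 was again the highest with 3472 normalized counts. Over the 8 genes of polyunsaturated fatty acid synthesis, 3 rose, 0 fell and 4 had an unadjusted p below 0.05, all 4 higher. Their median log2 fold change was 0.32, beside 7.5e-05 over all tested genes.

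Among genes of saturated and monounsaturated fatty acid synthesis, Scd1 (ENSMUSG00000037071, chromosome 19, 44382894 to 44399154), the main desaturase of stearate in liver, had 9989, 9809.6, 18859 and 12488 normalized counts in male PP 1 to 4 and 35996, 31423, 34889 and 39747 in male LL 1 to 4. The lowest LL liver was well above the highest PP liver, and the SD was 4229 for PP and 3429 for LL livers. The log2 fold change was 1.47 ± 0.35 SE (adjusted P by DESeq2 = 0.00283). Elovl6, which extends palmitate, had 240.0, 201, 345 and 236 in the male PP and 687, 633, 548 and 484 in the male LL livers, a log2 fold change of 1.20 ± 0.35 SE (adjusted P by DESeq2 = 0.0387) with no overlap. Me1 (ENSMUSG00000032418, chromosome 9, 86462646 to 86578104), the malic enzyme that supplies NADPH for lipogenesis, had 658, 470.0, 535 and 412 in the male PP and 984, 1182, 1451 and 582 in the male LL livers, where male LL 4 was below male PP 1, and a log2 fold change of 1.02 ± 0.29 SE (adjusted P by DESeq2 = 0.0321). Other genes hold 48.2% of the 31-base words of Me1 transcripts, so reads may be split among them. Scd1 and Elovl6 kept theirs only without male PP 3 among the 8 fits that each left out a male library, and Me1 only without male LL 4. Adjusted P by DESeq2 reached 0.342 for Scd1, 0.466 for Elovl6 and 0.342 for Me1 in these fits. The log2 fold change of Scd1 was between 1.37 and 1.72 in them. Of the 15 tested genes in the fatty acid synthesis list, 3 rose, 0 fell and 7 had an unadjusted p below 0.05, all 7 higher, with a median log2 fold change of 0.37. Srebf1, the master regulator of this pathway, had 232, 173, 187 and 441 in the male PP and 159, 137, 234 and 494 in the male LL livers, a log2 fold change of -0.01 ± 0.37 SE (adjusted P by DESeq2 = 0.998); it was chosen after its values were seen.

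**Figure D2:**
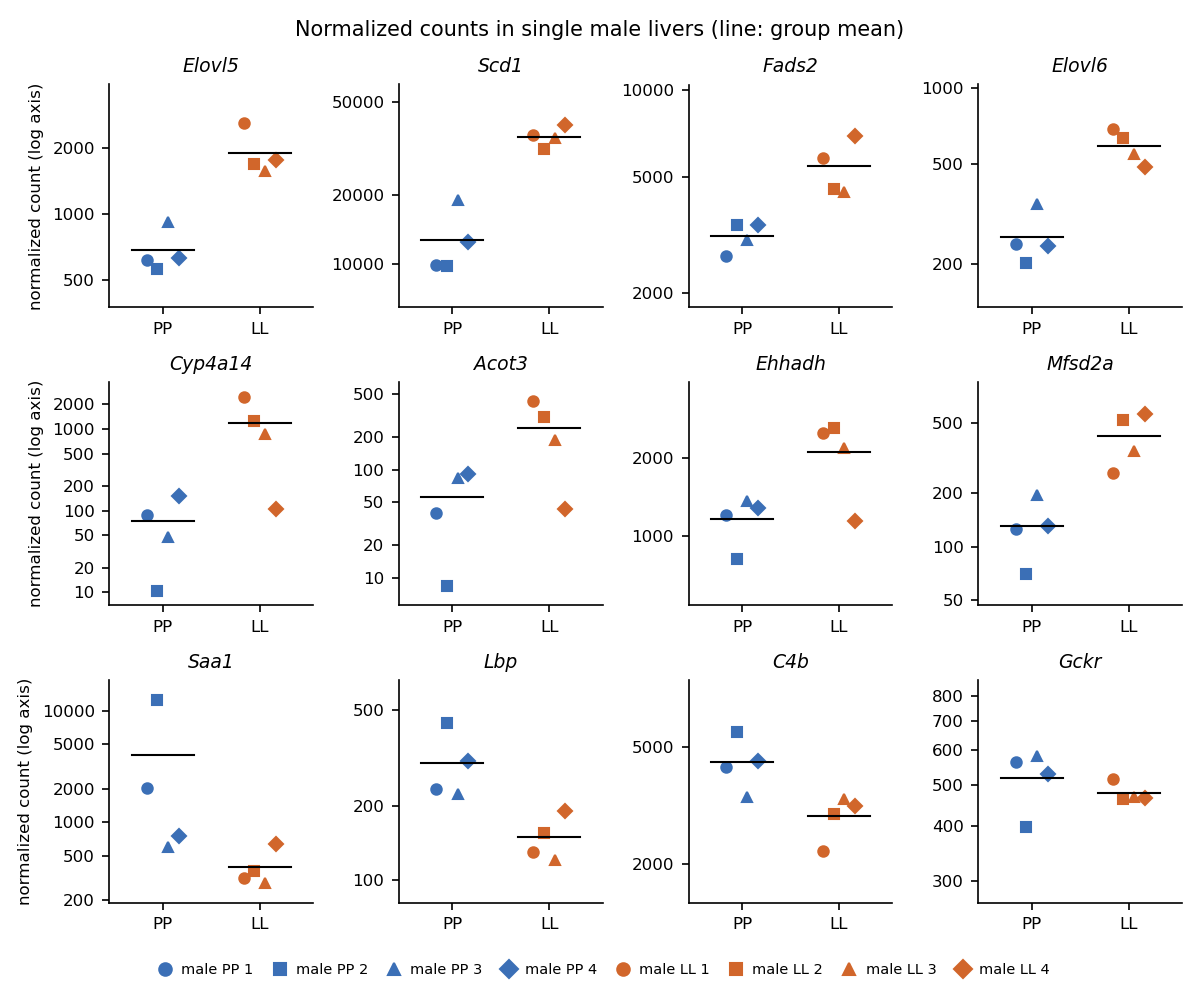
Normalized counts (log axes) of 12 genes in each male liver, PP in blue and LL in orange, with the group mean as a line and a marker shape for each mouse number. Elovl5, Scd1, Fads2, Elovl6, Mfsd2a, Lbp and C4b show no overlap, male LL 4 lies among the PP livers for Cyp4a14, Acot3 and Ehhadh, and male PP 2 is far above the others for Saa1.

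Targets of PPARα were higher in male LL 1, 2 and 3, while the list median of male LL 4 lay within the range of the PP livers. Cyp4a14 (ENSMUSG00000028715, chromosome 4, 115343397 to 115353344), an omega-hydroxylase of fatty acids, had 88, 10.5, 47 and 153 normalized counts in male PP 1 to 4 and 2486, 1260.0, 862 and 106 in male LL 1 to 4. Male LL 1, 2 and 3 were above every PP liver and male LL 4 was below male PP 4. The log2 fold change was 3.98 ± 0.70 SE (adjusted P by DESeq2 = 1.03e-05). It kept its call without any single library, but not without both male LL 1 and male LL 2, where it was 2.70 (DESeq2 adjusted P = 0.111). Ehhadh, the bifunctional enzyme of peroxisomal oxidation, had 1203, 818, 1364 and 1279 in the male PP and 2473, 2586, 2176 and 1143 in the male LL livers, and the peroxisomal thioesterase Acot3 had 40.0, 8.39, 84.6 and 90.9 in the male PP and 430.3, 309, 190.1 and 43.2 in the male LL livers. In both genes male LL 4 lay within the PP range. Their log2 fold changes were 0.84 ± 0.24 SE (adjusted P by DESeq2 = 0.0300) and 2.11 ± 0.61 SE (adjusted P by DESeq2 = 0.0336). Both calls were lost in most fits that left out a library, 6 of 8 for Ehhadh and 5 of 8 for Acot3, with adjusted P by DESeq2 up to 0.431 and 0.422.

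Mfsd2a (ENSMUSG00000028655, chromosome 4, 122840643 to 122855244), a lysophosphatidylcholine carrier that is also on the PPARα list, did not share this pattern. It had 126, 70.3, 196 and 131 in the male PP and 261, 516, 346 and 564 in the male LL livers, with male LL 4 the highest. The log2 fold change was 1.69 ± 0.36 SE (adjusted P by DESeq2 = 0.00119), and it kept its call without any single library. Abcd2, a peroxisomal carrier of fatty acids, had 20.8, 14.7, 2.82 and 13.5 in the male PP and 82.9, 19.2, 28.6 and 62.7 in the male LL livers, and a log2 fold change of 1.95 ± 0.38 SE (unadjusted p by DESeq2 = 3.6e-07, no adjusted P). Male LL 2 overlapped with male PP 1 there. Abcd2 was called in 12 of the 14 alternatives that gave it an adjusted P.

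Of the 40 PPARα targets tested, 4 rose, 0 fell and 19 had an unadjusted p below 0.05, all 19 higher, with a median log2 fold change of 0.40. Male LL 1, 2 and 3 were above every PP liver in 30, 33 and 32 of the 40 genes, and male LL 4 in 4 of them. Male LL 4 was below every PP liver in 14 of the genes and had the lowest value of the LL livers in 30. By mouse, the median log2 difference from the male PP mean over the list was 0.60, 0.62, 0.53 and -0.09 in male LL 1 to 4, and from -0.21 to 0.21 in the PP livers. Examples chosen after their values were seen are Cyp4a10, with 602, 166, 985 and 1516 in the male PP and 5465, 4139, 2796 and 378 in the male LL livers, and Pdk4, the kinase that turns off pyruvate oxidation, with 4.80, 5.25, 15 and 2.70 in the male PP and 37.6, 36, 26.8 and 2.16 in the male LL livers. Neither was called, with log2 fold changes of 1.97 ± 0.61 SE (adjusted P by DESeq2 = 0.0615) and 1.87 ± 0.91 SE (unadjusted p by DESeq2 = 0.0398, no adjusted P). Without male LL 4 there were 11 calls and 29 genes at an unadjusted p below 0.05, and without both male LL 1 and male LL 2 there were 2 calls and 4 genes higher at that p. Over all tested genes these fits gave 58 and 41 calls, with 3.77% and 2.76% of genes higher at that p. Ppara itself, also chosen after its values were seen, had 146, 167, 138 and 277 in the male PP and 213, 95.9, 153 and 104 in the male LL livers and was not called.

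**Figure D3:**
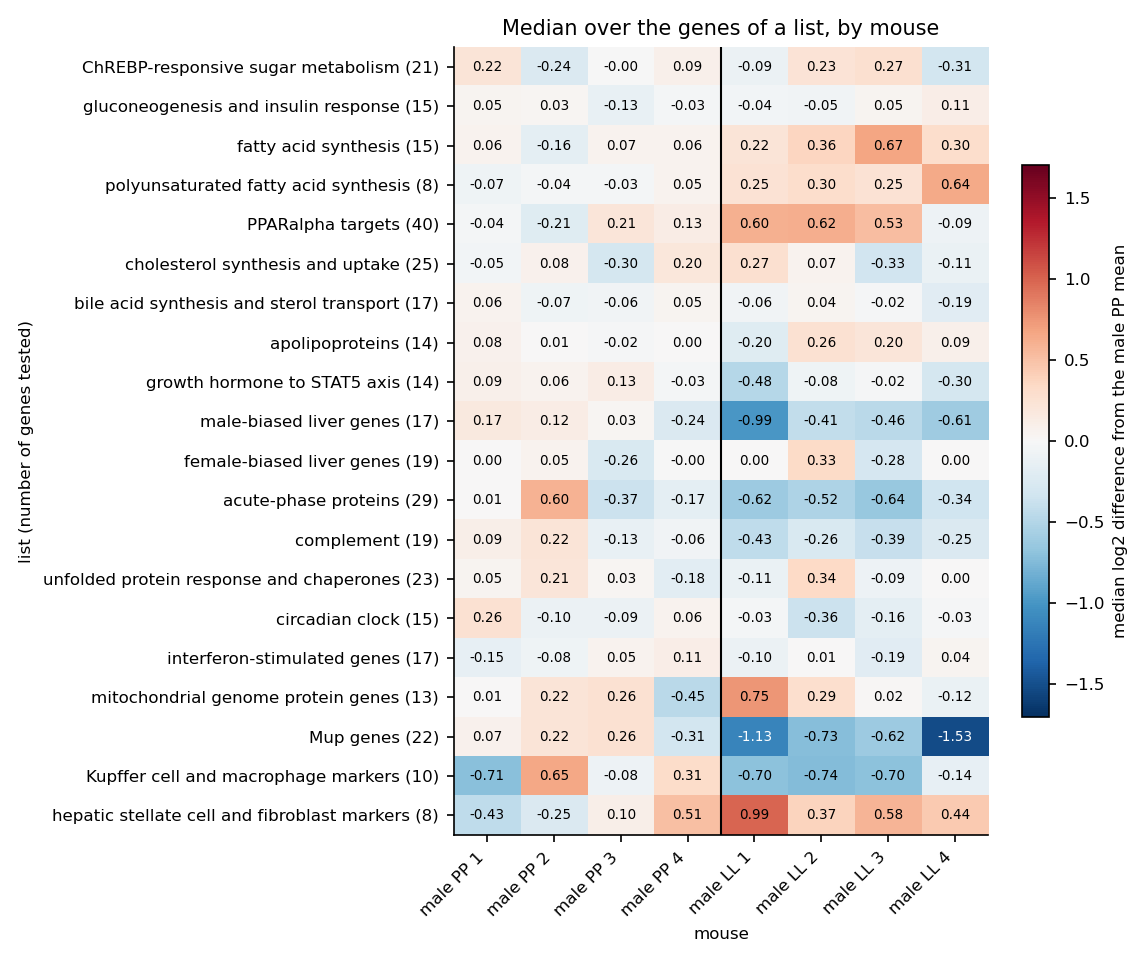
Columns are the 8 male livers and rows are gene lists, and each cell gives the median over the list of the log2 difference between that liver and the male PP mean (1 added to each normalized count). The PPARα targets read 0.60, 0.62, 0.53 and -0.09 in male LL 1 to 4, the Mup genes read from -1.53 to -0.62 in all 4 LL livers, and the acute-phase list reads 0.60 in male PP 2.

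Genes of sugar metabolism were taken from the ChREBP-responsive list and from that of gluconeogenesis. Mlxipl, which encodes ChREBP, had 843, 670.4, 599 and 563 in the male PP and 491, 463, 587 and 371 in the male LL livers, a log2 fold change of -0.48 ± 0.19 SE (adjusted P by DESeq2 = 0.195). Over the 21 ChREBP-responsive genes the median log2 fold change was 0.10. Slc37a4, the glucose 6-phosphate transporter, had a log2 fold change of 0.28 ± 0.16 SE (adjusted P by DESeq2 = 0.413). Of the 15 genes of gluconeogenesis and insulin response 0 were called. Tat, a tyrosine aminotransferase that glucocorticoids induce, was the only one with an unadjusted p below 0.05, at 3275, 2904, 2594 and 3532 in the male PP and 4129, 2844, 4355 and 9178 in the male LL livers. Its log2 fold change of 0.74 ± 0.33 SE (adjusted P by DESeq2 = 0.259) was 0.29 without male LL 4. Igfbp1, a target of FOXO1 in fasting, was also highest in male LL 4, with 75.2, 46.2, 20.7 and 62.1 in the male PP and 95.9, 53.9, 38.4 and 171 in the male LL livers, and Fbp1 had a log2 fold change of 0.30 ± 0.16 SE (adjusted P by DESeq2 = 0.365).

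Apoa4 (ENSMUSG00000032080, chromosome 9, 46151994 to 46154757), an apolipoprotein of triglyceride-rich particles, was the only DEG of 14 apolipoprotein genes. It had 147, 207, 237 and 261 normalized counts in male PP 1 to 4 and 390.1, 815, 705 and 416 in male LL 1 to 4. The 2 genotypes did not overlap, and the log2 fold change was 1.45 ± 0.29 SE (adjusted P by DESeq2 = 0.000537). The call held without any single library, but 64.5% of the words of Apoa4 are shared with other genes. The abundant Apob and Apoa2 had log2 fold changes of -0.19 ± 0.16 SE (adjusted P by DESeq2 = 0.634) and 0.27 ± 0.18 SE (adjusted P by DESeq2 = 0.547), and the list median was 0.06.

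The remaining higher genes outside these lists had smaller folds. Acsl5 had 1198, 1135, 1256 and 1238 in the male PP and 2111, 1835, 1784 and 1798 in the male LL livers, without overlap, with a log2 fold change of 0.64 ± 0.17 SE (adjusted P by DESeq2 = 0.0149). Nadk, which makes NADP from NAD, had 504, 512, 554 and 627 in the male PP and 763, 745, 787 and 773 in the male LL livers, a narrow range in LL mice, and a log2 fold change of 0.48 ± 0.11 SE (adjusted P by DESeq2 = 0.00283). The mitochondrial chaperonin Hspe1 and the cytosolic chaperone Hsp90ab1 had log2 fold changes of 0.52 ± 0.12 SE (adjusted P by DESeq2 = 0.00283) and 0.48 ± 0.13 SE (adjusted P by DESeq2 = 0.0205). The carboxylesterase Ces1e, the phosphatidylcholine carrier Pctp and Tmed5, of the early secretory pathway, had 0.78, 0.69 and 0.55, with DESeq2 adjusted P of 0.0336, 0.0375 and 0.0336. In the fits without a library, the call was lost in 2 of 8 for Nadk, 5 of 8 for Pctp and Hspe1, 6 of 8 for Acsl5 and Hsp90ab1, and 7 of 8 for Ces1e and Tmed5, with adjusted P by DESeq2 of at most 0.518.

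Cholesterol synthesis and uptake held 0 calls among 25 genes and a median log2 fold change of 0.01. Mvk, the mevalonate kinase, had 32, 35.7, 23.5 and 45 in the male PP and 9.07, 21.6, 12.5 and 15.1 in the male LL livers, a log2 fold change of -1.23 ± 0.39 SE (unadjusted p by DESeq2 = 0.00170, no adjusted P), with no overlap, at counts where a few reads weigh much. The later enzymes Ebp and Sc5d had log2 fold changes of 0.31 ± 0.12 SE (adjusted P by DESeq2 = 0.149) and 0.28 ± 0.14 SE (adjusted P by DESeq2 = 0.322). Of 17 genes of bile acid synthesis and sterol transport, Hsd3b7, the dehydrogenase of the steroid ring, was lower, with 1141, 1214, 1207 and 1507 in the male PP and 772, 909, 1039.5 and 822 in the male LL livers and a log2 fold change of -0.52 ± 0.15 SE (adjusted P by DESeq2 = 0.0336). Hsd3b7 shares 86.2% of its words with other genes, overlaps another gene on its strand and kept its call only without male LL 3, so this value is uncertain, with DESeq2 adjusted P up to 0.402. Cyp7b1 of the alternative bile acid pathway had 3486, 3112, 2914 and 2111 in the male PP and 704, 2097, 1440.2 and 1632 in the male LL livers, without overlap, and a log2 fold change of -0.98 ± 0.44 SE (adjusted P by DESeq2 = 0.259), while Cyp39a1 had 32, 35.7, 22.6 and 27.9 in the male PP and 45.4, 50.4, 46.4 and 44.3 in the male LL livers and a log2 fold change of 0.67 ± 0.30 SE (unadjusted p by DESeq2 = 0.0248, no adjusted P).

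Acute-phase genes had mostly negative log2 fold changes in LL livers. The serum amyloids Saa1 (ENSMUSG00000074115, chromosome 7, 46389916 to 46392547) and Saa2 (ENSMUSG00000057465, chromosome 7, 46401214 to 46403737), which rise many fold in plasma during inflammation, carried the 2 calls. Saa1 had 2043, 12575, 591 and 749.9 normalized counts in male PP 1 to 4 and 311, 366, 282 and 631 in male LL 1 to 4, and Saa2 had 461, 7007, 184 and 295 in the male PP and 98.5, 104, 91.9 and 299 in the male LL livers. Male PP 2 was far above all other livers, and male LL 4 was the highest LL liver and overlapped with the PP livers in both genes. The log2 fold changes were -3.33 ± 0.69 SE (adjusted P by DESeq2 = 0.000597) and -3.74 ± 0.83 SE (adjusted P by DESeq2 = 0.00188). Without male PP 2 the log2 fold change of Saa2 was -1.07 and lost its call (DESeq2 adjusted P = 0.420), while Saa1 kept it at -1.50 (DESeq2 adjusted P = 0.00914). The words shared with other genes were 43.5% of Saa1 and 46.6% of Saa2, so the split between these genes is uncertain.

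Lbp, the lipopolysaccharide-binding protein, had 237, 441, 226 and 306 normalized counts in male PP 1 to 4 and 129.6, 156, 120.5 and 191 in male LL 1 to 4. All LL livers were below all PP livers, with a log2 fold change of -1.02 ± 0.21 SE (unadjusted p by DESeq2 = 1.23e-06, no adjusted P). Without male PP 2 it was -0.78 (DESeq2 adjusted P = 0.0279). Lbp was called in 16 of the 18 alternatives that gave it an adjusted P. Il1r1, the interleukin-1 receptor, chosen after its values were seen, had 251, 209, 172 and 131 in the male PP and 60.9, 128, 75 and 91.8 in the male LL livers and a log2 fold change of -1.09 ± 0.26 SE (unadjusted p by DESeq2 = 2.47e-05, no adjusted P), also without overlap. Of the 29 genes tested, 2 fell, 0 rose and 14 had an unadjusted p below 0.05, all 14 lower, beside 3.97% of all tested genes. The median log2 fold change was -0.47, and 1 of the 29 genes had a positive one. It was -0.33 without male PP 2, with 9 genes at that p, and -0.68 without male PP 3, with 20 genes. By mouse the list median was 0.60 in male PP 2, from -0.37 to 0.01 in the other PP livers and from -0.64 to -0.34 in the LL livers.

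Complement genes held 1 lower DEG. C4b (ENSMUSG00000073418, chromosome 17, 34947354 to 34962912) had 4280.1, 5646, 3382 and 4481 in the male PP and 2206, 2950.4, 3335 and 3138 in the male LL livers, a log2 fold change of -0.61 ± 0.16 SE (adjusted P by DESeq2 = 0.0149) without overlap, where male LL 3 was close to male PP 3. Other genes hold 45.5% of the words of C4b, and its call was lost in 5 of 8 fits without a library (DESeq2 adjusted P up to 0.342, without male PP 2). Cfb, a component of the alternative pathway, had 5929.7, 5878, 5072 and 5204 in the male PP and 4079, 4826, 4589 and 4369 in the male LL livers, without overlap. Its log2 fold change of -0.31 ± 0.09 SE (adjusted P by DESeq2 = 0.0455) passed the adjusted P but not the fold limit, and 73.1% of its words are shared. The lectin Mbl1 had a log2 fold change of -0.48 ± 0.16 SE (adjusted P by DESeq2 = 0.0815). In the list of 19 genes 1 fell, 0 rose and 7 had an unadjusted p below 0.05, all 7 lower, with a median log2 fold change of -0.32. The other lower DEGs were Lifr, the receptor of leukemia inhibitory factor, with 2520.1, 2926, 2960.2 and 1665 in the male PP and 1544, 1748, 1190.3 and 1408 in the male LL livers, and Ldhd, a D-lactate dehydrogenase, with 717, 958, 645 and 771 in the male PP and 464, 520.3, 584 and 498 in the male LL livers. Their log2 fold changes were -0.77 ± 0.23 SE (adjusted P by DESeq2 = 0.0455) and -0.58 ± 0.14 SE (adjusted P by DESeq2 = 0.00283). Lifr kept its call only without male PP 4 and Ldhd lost it without male PP 2 and without male LL 1, with DESeq2 adjusted P up to 0.567 and 0.140. Gm46620 had a log2 fold change of -0.75 ± 0.22 SE (adjusted P by DESeq2 = 0.0444) and lost its call in all 8 such fits, and 96.5% of its words are shared.

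Macrophage markers were lower beside these lists. Of 10 Kupffer cell and macrophage markers 0 were called and 8 had an unadjusted p below 0.05, all 8 lower, with a median log2 fold change of -0.60, and none was at 0 in all males. Vsig4 had 59.2, 138, 54.5 and 91.8 in the male PP and 44.1, 43.2, 47.3 and 48.6 in the male LL livers, Clec4f had 182, 353, 234 and 346 in the male PP and 146, 162, 203 and 231 in the male LL livers and C1qc had 72, 121, 80.8 and 124 in the male PP and 50.5, 61.1, 58.9 and 90.7 in the male LL livers; these were chosen after their values were seen. Male PP 2 and male PP 4 were the highest for most of the markers, and male PP 1 was near the LL livers. The summed level of the 10 markers ranged from 54.8 to 204 TPM in male PP and from 73.5 to 121 TPM in male LL livers. Without male PP 2 there were 3 markers lower at that p, beside 2.53% of all tested genes, and the median was -0.45. Their part in the acute-phase and complement values was not tested. In bulk liver, fewer cells of a type and less RNA per cell cannot be told apart. Of 8 tested stellate cell and fibroblast markers 0 were called and 3 had an unadjusted p below 0.05, all 3 higher, with a median log2 fold change of 0.53. Their summed level was 31.7 to 77.8 TPM in male PP and 68.4 to 132 TPM in male LL livers. The TPM sums of both cell types include the shift of TPM between genotypes given below.

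**Figure D4:**
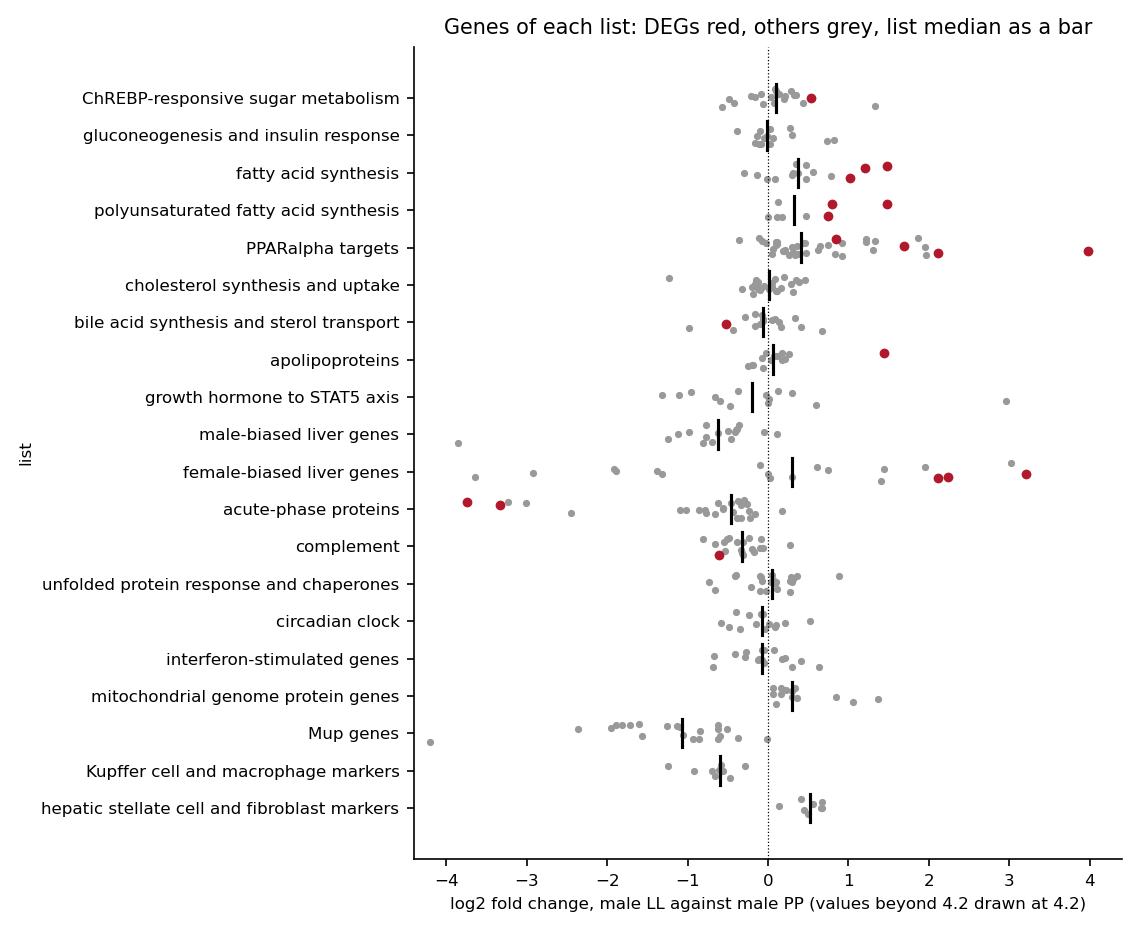
Each point is a tested gene of a list, placed by its log2 fold change in male LL against male PP mice, with DEGs in red, the list median as a bar, the median over all tested genes as a dotted line, and values beyond the axis drawn at its edge. The bars of the PPARα, fatty acid synthesis and polyunsaturated lists stand at 0.40, 0.37 and 0.32, and those of the acute-phase, complement and Mup lists at -0.47, -0.32 and -1.07.

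Mup transcripts made up a smaller part of the LL liver transcriptome. Mup genes held 24.0%, 30.05%, 27.6% and 21.5% of the estimated counts in male PP 1 to 4 and 13.7%, 16.4%, 19.3% and 11.8% in male LL 1 to 4. The 2 genotypes did not overlap, and the means were 25.8% ± 3.77 and 15.3% ± 3.26 (SD, n = 4 each). Among the 22 Mup genes 0 were called, 8 had an unadjusted p below 0.05, all 8 lower, and 22 had a negative log2 fold change, with a median of -1.07. Mup18, a Mup gene of moderate level, had 1267, 5079, 8019 and 11452 in the male PP and 2214, 870.4, 1545 and 381 in the male LL livers and a log2 fold change of -2.37 ± 0.72 SE (adjusted P by DESeq2 = 0.0537). Mup11, among the abundant ones, had a log2 fold change of -1.60 ± 0.68 SE (adjusted P by DESeq2 = 0.234), and Mup4, with 44.8, 51.4, 48.9 and 36 in the male PP and 31.1, 22.8, 19.6 and 9.72 in the male LL livers, one of -1.14 ± 0.36 SE (unadjusted p by DESeq2 = 0.00153, no adjusted P). Male PP 1 lay within the LL range of Mup18 and Mup4 did not overlap. These genes share 38.1% of words in Mup4, 84.5% in Mup11 and 90.8% in Mup18 with other genes, so the reads may be split among them. Mup9 ranged from 4721 to 247649 normalized counts within male PP mice alone.

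The share of Mup transcripts also bears on TPM, which has the same total in each library. Mup genes took 38.2% ± 5.10 of TPM in PP males and 22.7% ± 4.35 in LL males (± SD, 4 mice each). The median log2 ratio of mean TPM, LL against PP, over 10899 genes was 0.34, and 76.2% of these genes had a higher mean TPM in LL mice. Relative to that median, all 28 DEGs kept the sign of their log2 fold change. In TPM as deposited 27 did, the exception being C4b, at 316 TPM in male PP and 332 TPM in male LL mice.

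**Figure D5:**
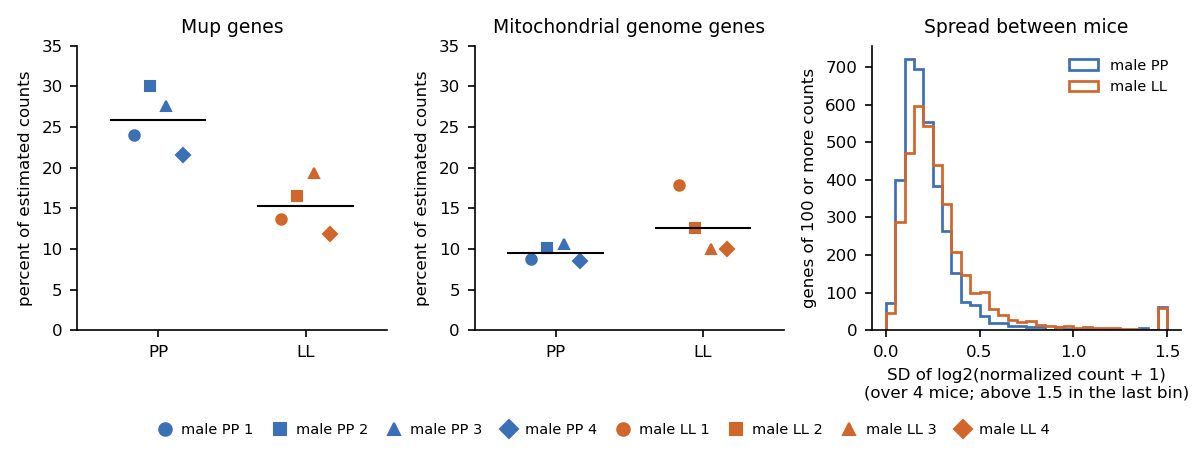
The left and middle plots give the percent of estimated counts on Mup genes and on genes of the mitochondrial genome in each male liver (line, group mean), and the right plot gives the distribution over 3587 genes of the SD of log2(normalized count + 1) over 4 mice, with SDs above 1.5 in the last bin. Mup shares are 21.5% to 30.05% in PP and 11.8% to 19.3% in LL livers, male LL 1 has the highest mitochondrial share at 17.9%, and the LL distribution is shifted to larger SDs.

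Other genes that depend on sex moved less evenly. Of 17 male-biased genes outside the Mup family 0 were called and 3 had an unadjusted p below 0.05, all 3 lower, with a median log2 fold change of -0.62. The 3 were Cyp7b1, given above, Ugt2b1, a glucuronosyltransferase, and Gstp1, a glutathione transferase. Gstp1 had 12226, 13009.5, 6968 and 9667 in the male PP and 1545, 6485, 7964 and 8467 in the male LL livers, with male LL 1 far below the others, and a log2 fold change of -0.78 ± 0.36 SE (adjusted P by DESeq2 = 0.283). Ugt2b1 had one of -0.36 ± 0.18 SE (adjusted P by DESeq2 = 0.322). Male LL 1 was the lowest LL liver in 13 of the 17 genes. The fit of all 18 libraries takes 1 dispersion per gene from both sexes. A fit of the male libraries alone gave 3 calls and 9 genes at an unadjusted p below 0.05, all lower, on this list. Among Mup genes it gave 4 calls and 15 such genes. Over all 9793 genes tested in that fit 33 were called, and 2.98% were higher and 3.07% lower at that p.

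Most female-biased genes passed the filter on low counts through the female libraries. In the male libraries alone 7 were tested, with 1 higher and 0 lower calls. In that fit 3 were higher and 1 lower at an unadjusted p below 0.05, beside the shares of all its genes given above. Of the 19 genes of this list in the fit of all libraries 3 rose, Cyp17a1, Cyp2a4 and Acot3, and 0 fell, while 5 were higher and 4 lower at an unadjusted p below 0.05. Cyp17a1 (ENSMUSG00000003555, chromosome 19, 46655604 to 46661611), a steroid hydroxylase and lyase, had 28.8, 62.9, 31 and 49.5 normalized counts in male PP 1 to 4 and 178, 108, 83.9 and 449 in male LL 1 to 4. The 2 genotypes did not overlap, male LL 4 stood above the rest, and the log2 fold change was 2.24 ± 0.52 SE (adjusted P by DESeq2 = 0.00283), with the call lost without male PP 1 (DESeq2 adjusted P = 0.0709). Cyp2a4, a steroid hydroxylase of female liver, had 3.20, 5.25, 0.940 and 2.70 in the male PP and 6.48, 5.99, 1.78 and 96.1 in the male LL livers. It passed the filter on low counts only through the female libraries, with means of 3457 in PP and 2180 in LL females. Its log2 fold change of 3.21 ± 0.93 SE (adjusted P by DESeq2 = 0.0342) rested on male LL 4, without which it was 0.61 (DESeq2 adjusted P = 0.948), and 71.8% of its words are shared. Most genes of this list were hardly expressed in males, and the median level over the list was 0.162 TPM in male PP mice.

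In the growth hormone to STAT5 list only 5 of 14 genes had an adjusted P and 0 were called. At an unadjusted p below 0.05, 2 were higher and 2 lower, with a median log2 fold change of -0.20 over the list. Lepr (ENSMUSG00000057722, chromosome 4, 101574601 to 101676237), the leptin receptor, had 4.80, 2.10, 4.70 and 4.50 normalized counts in male PP 1 to 4 and 20.7, 26.4, 16.1 and 61.6 in male LL 1 to 4. All LL livers were above all PP livers, by a log2 fold change of 2.96 ± 0.52 SE (unadjusted p by DESeq2 = 1.39e-08, no adjusted P), and edgeR gave an adjusted P of 0.0468. Lepr was called in all 11 alternatives that gave it an adjusted P. No male PP library reached the minimum of the filter on low counts for Lepr, and every male LL library did. Among the males, Lepr therefore met that filter only through the genotype in which it was higher. At the counts of the male PP livers a few reads weigh much, so the size of this fold change is uncertain. Per length the gene stayed low, at 0.251 TPM in male PP and 0.817 TPM in male LL mice. Egfr, the receptor of epidermal growth factor, had 4322, 4201, 4196 and 3056 in the male PP and 1481, 3495, 1168 and 1948 in the male LL livers with overlap through male LL 2, and a log2 fold change of -0.96 ± 0.34 SE (adjusted P by DESeq2 = 0.122). Socs2, a direct target of STAT5, had 86.4, 92.3, 128 and 41.4 in the male PP and 9.07, 89.9, 27.7 and 35.6 in the male LL livers, which overlapped through male LL 2, and a log2 fold change of -1.10 ± 0.41 SE (unadjusted p by DESeq2 = 0.00691, no adjusted P). Rasal2, a GTPase-activating protein of Ras, was the third gene called by edgeR, with 62.4, 56.7, 76.1 and 54 in the male PP and 16.8, 32.4, 24.1 and 25.9 in the male LL livers. Its log2 fold change was -1.32 ± 0.25 SE (unadjusted p by DESeq2 = 8.59e-08, no adjusted P), and the edgeR adjusted P was 0.0382. Rasal2 was called in 11 of the 13 alternatives that gave it an adjusted P.

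Several programmes held 0 calls, but many of their genes had no adjusted P. One was given to 15 of 23 genes of the unfolded protein response, 4 of 15 clock genes and 2 of 17 interferon-stimulated genes. Among 23 genes of the unfolded protein response, the sensor Ern1 had 182, 154, 139 and 163 in the male PP and 99.8, 99.5, 99.9 and 104 in the male LL livers, without overlap, and a log2 fold change of -0.66 ± 0.19 SE (unadjusted p by DESeq2 = 0.000385, no adjusted P). Xbp1, whose transcript IRE1 splices, had a log2 fold change of -0.41 ± 0.19 SE (adjusted P by DESeq2 = 0.284), and Creld2, the chaperone-like secreted protein, had 107, 197, 133 and 91.8 in the male PP and 94.6, 553, 175 and 151 in the male LL livers with male LL 2 far above the rest. Of 15 clock genes, 0 had an unadjusted p below 0.05 and the median log2 fold change was -0.07. The output factors Tef and Hlf had values of -0.24 and 0.22 and the repressor Nfil3 -0.40. Of 17 interferon-stimulated genes 4 were lower at an unadjusted p below 0.05, with a median of -0.07. The 3 with the smallest p were Usp18, with 52.8, 46.2, 45.1 and 51.3 in the male PP and 28.5, 34.8, 25.9 and 32.4 in the male LL livers, Irf7, with a log2 fold change of -0.68 ± 0.25 SE (unadjusted p by DESeq2 = 0.00810, no adjusted P), and Psmb8, with -0.41 ± 0.20 SE (unadjusted p by DESeq2 = 0.0417, no adjusted P).

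Genes of the mitochondrial genome held 8.80%, 10.05%, 10.6% and 8.52% of counts in male PP 1 to 4 and 17.9%, 12.5%, 9.96% and 10.02% in male LL 1 to 4. All 13 protein genes had positive log2 fold changes, with a median of 0.29, and 2 had an unadjusted p below 0.05, mt-Nd3 and mt-Atp6. Male LL 1 was above every PP liver in 12 of the 13 genes, male LL 2 in 7, and male LL 3 and 4 in 2 each. mt-Atp6 had 27415, 39646, 29819 and 15705 in the male PP and 125143, 65136, 20221 and 23402 in the male LL livers, and without both male LL 1 and male LL 2 its log2 fold change of 1.05 became -0.37, that of mt-Co2 (0.85) became -0.32, and the list median became -0.06. Of the words of mt-Atp6, 99.5% are shared with other genes.

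Spread between mice was measured as the SD of log2(normalized count + 1) over the 4 mice of a genotype. Over 3587 genes with a mean of at least 100 normalized counts the median SD was 0.193 for PP and 0.235 for LL males, and 2210 of the genes had the larger SD in LL mice. Pooled over genotypes, the quartiles were 0.169, 0.229 and 0.312. The 5 steadiest genes were Sdf4, Ghitm, Alg10, Wapl and Ido2, with pooled SDs of 0.0270, 0.0337, 0.0440, 0.0492 and 0.0529. Sdf4, a calcium-binding protein of the Golgi, had 376, 378, 384 and 374 in the male PP and 360.3, 354, 370.3 and 373 in the male LL livers, and Alg10, a glucosyltransferase of N-glycosylation, had 112, 110.2, 113 and 117 in the male PP and 111, 108, 105 and 103 in the male LL livers. The 10 most variable genes were Mup22 and 9 pseudogenes or predicted genes (Mup-ps17, Gm29216, Gm28439, Gm10222, Gm28437, Gm47162, Gm9794, Gm10288 and Rpl10-ps3), with 74.5% to 100% of words shared with other genes. Mup22 was at 0 in male PP 4 and between 211473 and 403085 in the other males.

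By level, the 10 genes with the highest mean TPM in male liver were Mup7, Mup22, Mup19, Mup9, Mup14, mt-Atp8, Alb, Apoa2, Atp6-ps and mt-Co1. Mup7 was at 79310.3 TPM in male PP and 46610.1 TPM in male LL mice. Alb (ENSMUSG00000029368, chromosome 5, 90608647 to 90624696), which encodes serum albumin, had 410794, 315825, 311509 and 354548 normalized counts in male PP 1 to 4 and 503677, 473835, 393299 and 430907 in male LL 1 to 4. Its log2 fold change of 0.37 ± 0.11 SE (adjusted P by DESeq2 = 0.0368) passed the adjusted P and missed the fold limit, and male LL 3 overlapped with male PP 1. Within lipid synthesis Scd1 and Fads2 were the highest of the DEGs per length, at 228 TPM in male PP and 919 TPM in male LL mice for Scd1 and 114 TPM in male PP and 226 TPM in male LL mice for Fads2. Elovl5 was at 27.9 TPM in male PP and 93.9 TPM in male LL mice, and Cyp4a14 at 3.08 TPM in male PP and 84 TPM in male LL mice, with the shift of TPM given above included in each of these levels.

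The same contrast was taken in the female livers, which are other mice but share the filter and the dispersion of each gene with the male contrast in the fit of all 18 libraries. Of the 21 genes higher in male LL mice, 16 had a positive log2 fold change in females, 5 at an unadjusted p below 0.05, and 0 were called, beside 0.649% of all tested genes called in females and 13.0% at that p. Of the 7 lower genes, 4 had a negative one in females, 2 at that p, and 1 was called, Gm46620. The median over the 21 genes was 0.20 in females. Elovl5 had 2129 ± 472 normalized counts in PP females and 3043 ± 728 in LL females (± SD, 5 mice each), a log2 fold change of 0.52 that was not called. Cyp4a14 had 5083 ± 1023 and 5506 ± 1305, so that both female means were above every male LL liver. The difference between the sexes in the genotype effect, tested as an interaction with no fold limit, passed a DESeq2 adjusted P of 0.05 in 8 genes (0.0731%). They were Cyp4a14, Lepr, Abcd2, Alb, Orm3, Limd2, Ahcyl and Gm14586. Ahcyl was at 0 in all LL females and Gm14586 at 0 in all PP females. In males their genotype differences had an unadjusted p by DESeq2 of 0.876 and 0.153. Lepr had 69.6 ± 23.5 normalized counts in PP females and 49.2 ± 14.5 in LL females, means above those of both male genotypes. With edgeR it passed in 0 genes, and 676 genes had an unadjusted p below 0.05.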

How the data were processed

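Total liver RNA of 18 mice was sequenced, 1 library per mouse, and the comparison used 4 male LL and 4 male PP libraries, grouped by the labels. Replicate numbers were used only to name mice, apart from the alternative with the number as a block. The authors quantified reads with Salmon 1.4.0 (version from the submitters' processing notes) against GENCODE M26 transcripts of GRCm39, without pooling, and deposited estimated counts and TPM per transcript. TPM has a fixed total per library, so a change in abundant transcripts moves all others.

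Transcripts were joined to genes with GENCODE M39 on the same build. Of 139225 transcripts 137570 matched, holding at least 99.76% of the counts of each library, and 1655 were left out. Estimated counts were summed to 52230 genes and rounded to whole numbers. Testing covered the 10938 genes that reached 10 counts in 4 or more libraries, with DESeq2 1.42.0 (R 4.3.3, Wald test, Benjamini-Hochberg adjustment, independent filtering at its default of 0.1) in a fit of all 18 libraries in 4 groups of genotype and sex. The interaction was taken from the same fit. DEGs passed 0.05 in adjusted P, with a ratio of LL to PP of 1.3 or more, or 0.7 or less. edgeR 4.0.16 (quasi-likelihood), other scalings and filters, age, fragment length, transcript length and omitted libraries were alternatives. Scripts were tested on simulated data. Library measures were compared by exact two-sided permutation tests.

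Totals of 3794671 to 6613905 counts per male library limit the precision of genes of low count. Estimated counts are assignments, so genes that share sequence can exchange reads, and the percent of 31-base words of a gene's transcripts that occur in other genes is given for those concerned. Labels do not tie mice to litters or extraction batches. The members and the lists were chosen with earlier results of these data known. Named genes were every DEG, every gene called by edgeR, Gckr, the 3 genes of smallest unadjusted p in each list, the 10 of highest mean TPM, and, from a mean of 100 normalized counts, the 10 most and 5 least variable. Other named genes are said to have been chosen after their values were seen, as were interaction genes and cell type markers. Some genes that the rule selects are not reported here.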

Additional observations from a re-analysis of the deposited data

Results flagged for a closer look

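In groups of 4 mice, 14 of 188 tested sets of values held a mouse whose gap to its nearest neighbour, divided by the range of the group, passed Dixon's critical value. The critical value flags about 1 in 20 sets of normally distributed values. These counts were not log-transformed, and some genes were named for their large spread. The number of flags therefore cannot be set against that rate. In male PP livers the ratio was 0.959 for Saa2 and 0.879 for Saa1, with male PP 2 the highest, and 0.889 for Mup-ps17 with the same mouse the highest. It was 0.889 for Lepr, with male PP 2 the lowest, and 0.901 for Egfr, with male PP 4 the lowest. In male LL livers male LL 4 was the highest for Saa2 (0.94), Cyp2a4 (0.95), Ern1 (0.897) and Gm47162 (1). Male LL 1 was the highest for Gckr (0.929), Acsl5 (0.842) and Gm10222 (0.863). The ratio was 0.962 for Gm28437 with male LL 3 the highest and 1 for Gm9794 with male LL 2 the highest.

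The genotype effect differed between the sexes by DESeq2's interaction term in named genes. The male minus the female log2 fold change was 3.87 for Cyp4a14 (adjusted P = 0.0460), 3.47 for Lepr (adjusted P = 0.000174), 2.13 for Abcd2 (adjusted P = 0.0170) and 0.61 for Alb (adjusted P = 0.0443). In males the log2 fold changes were 3.98, 2.96, 1.95 and 0.37, and in females 0.12, -0.51, -0.18 and -0.24. Normalized counts of Abcd2 were 13.0 ± 7.47 for PP and 48.3 ± 29.7 for LL males (± SD, 4 mice each), against 215 ± 11.7 for PP and 189.7 ± 34.5 for LL females (± SD, 5 mice each). With edgeR none of the genes passed, and 676 had an unadjusted p below 0.05.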

How the results depend on the processing

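The count of 28 DEGs (21 higher, 7 lower) was compared with 19 alternatives. It was 3 with edgeR (2 higher, 1 lower) and 53 with transcript length as an offset (25 lower). Lower DEGs numbered 13 without independent filtering, 18 with fragment length as a term, 18 in the male libraries alone and 26 without both male LL 1 and male LL 2, an alternative chosen after seeing the data, as was filtering tuned for 0.05. The fit of the male libraries alone gave 33 DEGs, of which 14 were among the 28. Leaving out 1 male library gave 20 (without male PP 2) to 58 (without male LL 4) DEGs, 13 to 35 higher and 7 to 23 lower. The interaction count of 8 became 0 with edgeR, 15 with age, 17 with fragment length, 18 without male LL 1 and 2, and 3 (without male LL 1) to 13 (without male LL 4) with 1 male library left out. With the replicate number as a block there were 26 DEGs, 13 higher and 13 lower. Same-numbered mice did not deviate together (r from -0.169 to 0.045, 0 of 4 PP libraries correlated best with their own number). With 4 mice per genotype a weak pairing by number would not show, so pairing was not excluded. Of the 28 DEGs 27 lost the call under at least 1 alternative, 0 reversed, and Elovl5 never lost it. The LL minus PP difference in Mup share was -15.4 percentage points in TPM and -10.5 in counts. The cause of these shifts was not tested.

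Of the log2 fold changes that reversed, that of Mup-ps17 without male LL 1 and 2 passed the adjusted P (0.000668 by DESeq2) and the others did not. Without male LL 1 and 2 they were -0.37 for mt-Atp6, -0.32 for mt-Co2, -0.33 for mt-Co1, 0.15 for Atp6-ps, 0.10 for Gm47162, 0.26 for Gm28437 and -25.78 for Mup-ps17. With the length offset they were -0.58 for mt-Atp8, 0.044 for Sdf4, -0.024 for Ghitm, 0.077 for Alg10, -0.29 for Wapl, 0.052 for Ido2 and -0.11 for Gm28439. With fragment length they were 0.066 for Mup22, 0.033 for Ido2 and -4.33 for Mup-ps17, and with age 0.14 for Mup22 and -0.11 for Gm28439. With the block they were 0.63 for Mup22, -0.54 for Gm28439 and 4.28 for Gm10288. Leave-one-out values ran from -0.43 to 0.29 for Mup22, -0.49 to 0.0022 for Atp6-ps, -0.11 to 0.35 for mt-Co1, -0.37 to 0.66 for Gm29216, -1.97 to 0.12 for Rpl10-ps3 and -0.52 to 0.49 for Gm28439.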
